A study of Mus musculus with 12 samples.

Results

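The fragments described here come from 2 cytosolic tRNAs of the mouse, the selenocysteine tRNA (mature-tRNA-SeC-TCA) and the cysteine tRNA (mature-tRNA-Cys-GCA). They were chosen by name: every mature tRNA entry of either amino acid was taken, which gave 2 of the 51 isoacceptors in the tables, an isoacceptor being all tRNAs that share an amino acid and an anticodon. Their reads fall into 6 of the 152 tRNA fragment species (tRFs) that had reads in any library. A tRF is an isoacceptor with a class: tRF5 for reads from the 5′ end, tRF3 for reads from the 3′ end with or without the CCA tail, and other for the remaining reads.

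Small RNA was sequenced in 12 libraries of sperm and TM4 cells. The sperm came from the epididymis of C57BL6/J males kept on AIN-93G (CD, with 16% of its energy as fat) or on the high-fat diet D12492 (HFD) from the age of 4 weeks, for 7 weeks. The fat content of D12492 is 69% of energy in the sample descriptions, and the methods give a lower one. Each of the 3 CD and 3 HFD libraries held the pooled sperm of 3 mice, so the spread between animals within a pool is not seen. TM4 is a mouse Sertoli cell line, kept in DMEM with fetal bovine serum, and had 2 libraries each of control cells (Ctrl), of cells given 10 µM Compound C for 12 hours (CC, an inhibitor of the energy sensor AMPK) and of cells that overexpressed angiogenin (Ang OE) from a pDEST26 vector. The sources do not say whether Ctrl cells carried an empty vector, nor whether the 2 libraries of a group came from separate cultures, so p-values in TM4 cells measure the spread between libraries, which may be technical.

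The libraries held 31710445 to 64038150 clean reads, of which 23030602 to 59623558 were not rRNA, and levels are given as reads per 1000000 of these (RPM). tRNA-SeC-TCA had 4586 to 10211 reads per sperm library and 372 to 910 per TM4 library, and tRNA-Cys-GCA had between 5431 and 13835 reads in all 12. Of the miRNA hairpins used as markers, those of testis germ cells were all detected in sperm (6 of 6). They summed to 1515 to 4024 RPM there, below the sums of the epithelial, red blood cell and smooth muscle lists. The sperm libraries also held the hairpins of epithelium at 4480 to 7580 RPM and of red blood cells at 12630 to 25341 RPM, whereas in TM4 cells the epithelial hairpins summed to at most 1.55 RPM and those of white blood cells to at most 0.939 RPM. The lists of smooth muscle (15332 to 29689 RPM in sperm and 29770 to 79792 RPM in TM4 cells), of red blood cells in TM4 cells (1090 to 1639 RPM) and of germ cells in TM4 cells (550 to 1334 RPM, 4 or 5 of 6 detected) were not near 0. No hairpin list for Sertoli cells was used, and the Ang transcript was not analysed here. Fewer cells of a type and less RNA per cell cannot be told apart in such libraries.

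Transfer RNAs carry amino acids to the ribosome and fold into a cloverleaf whose anticodon loop reads the codon. The enzyme that finishes every tRNA adds CCA at its 3′ end, to which the amino acid is attached. tRNA-SeC is unusual: it is charged with serine by the seryl-tRNA synthetase, the serine is then converted to selenocysteine on the tRNA, and it reads a UGA codon, otherwise a stop codon, in the messages of selenoproteins such as the glutathione peroxidase GPX4 of sperm. tRNA-Cys delivers cysteine, the sulphur counterpart of selenocysteine. Angiogenin is a ribonuclease that cuts mature tRNAs, mainly in the anticodon loop, and also removes nucleotides of the CCA tail.

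The sequences of both tRNAs are shown because the classes refer to their ends and because the tRNAs differ in gene number, length and variable arm. They were found in the genome build GRCm39 by a search for the cloverleaf and the internal promoter box, since the annotation used here holds no cytosolic tRNA genes; the deposited values are on mm10 and use their own tRNA database. The anticodon is in capitals, and the CCA tail is not part of the sequences shown.
tRNA-SeC-TCA: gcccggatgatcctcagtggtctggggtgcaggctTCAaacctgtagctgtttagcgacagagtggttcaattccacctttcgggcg
tRNA-Cys-GCA, most frequent form: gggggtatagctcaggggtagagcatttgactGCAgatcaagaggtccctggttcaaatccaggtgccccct
tRNA-Cys-GCA, next form: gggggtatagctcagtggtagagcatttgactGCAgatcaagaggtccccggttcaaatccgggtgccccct
mt-Tc, the mitochondrial tRNA-Cys: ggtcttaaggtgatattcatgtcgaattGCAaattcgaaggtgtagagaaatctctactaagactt

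With hits on 1 chromosome left out, the search found 1 tRNA-SeC gene, at chr7:19035169-19035255 on the plus strand, in an intergenic region. It is 87 nt long, with the anticodon at positions 36 to 38 from the 5′ end. For tRNA-Cys-GCA it found 52 genes of 72 nt with 20 distinct sequences, of which 44 lie on chromosome 6, 5 on chromosome 11, 2 on chromosome 9 and 1 on chromosome 17. By the GENCODE annotation 30 of them are intergenic, 21 lie in introns and 1 in an exon of a non-coding gene. RefSeq lists 57 genes of this anticodon on GRCm38.p6, on the same chromosomes. The most frequent form is that of 29 genes, and the next form, with 4 genes, differs from it by G16T, T50C and A62G, counted from the 5′ end of the tRNA and with the base of the most frequent form given first. Since many tRNA-Cys genes share their sequence, a read does not tell which gene it came from. The mitochondrial gene mt-Tc, read from the annotated transcript on the minus strand of chrM:5192-5257, is 66 nt long and was counted separately in the files.

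tRNA-SeC-TCA fragments were far higher in sperm than in TM4 cells. They stood at 273, 290 and 166 RPM in the 3 CD libraries and at 7.43 and 7.75 RPM in the 2 Ctrl libraries. The mean of CD sperm was 32.01-fold that of Ctrl TM4 cells, the highest ratio of the 50 isoacceptors with at least 10 reads in each of these libraries, whose median was 2.08-fold. tRNA-Ser-AGA, an isoacceptor of the amino acid that also charges tRNA-SeC, came next with a log2 ratio of 4.60 against 5.00 for tRNA-SeC-TCA. The ratio of tRNA-Cys-GCA was 2.16-fold, close to the median, with 327, 387 and 277 RPM in CD and 152 and 153 RPM in Ctrl. These ratios set a tissue against a cell line and are given with no test. Sperm held far more tRNA reads in all, 107544 to 165866 RPM in CD against 22658 to 27578 RPM in Ctrl, and scaled to mature tRNA reads the ratios were 5.96-fold for tRNA-SeC-TCA, still the highest, and 0.401-fold for tRNA-Cys-GCA.

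**Figure D1:**
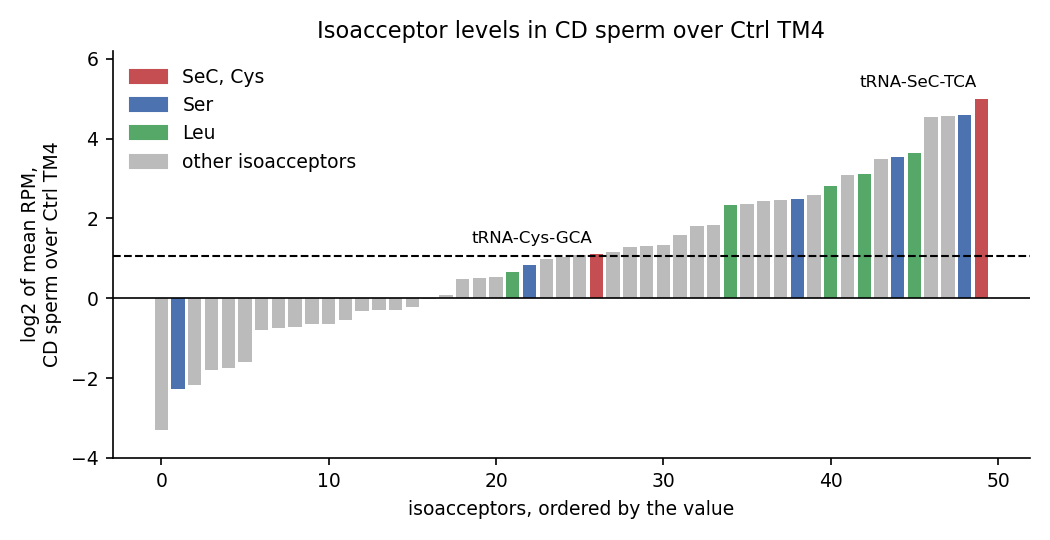
Each bar is 1 of 50 isoacceptors, and its height is the log2 ratio of the mean RPM in CD sperm (n = 3) to that in Ctrl TM4 cells (n = 2); the dashed line is the median of all bars. tRNA-SeC-TCA stands at the right end at 5.00, while tRNA-Cys-GCA at 1.11 is next to the median of 1.06.

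In a library, the level of tRNA-SeC-TCA relative to tRNA-Cys-GCA summarises this, since it does not depend on the library size. The ratio was 0.834, 0.751 and 0.598 in CD and 0.677, 0.821 and 0.738 in HFD, so the diets overlapped. It was 0.0487 and 0.0505 in Ctrl, 0.0425 and 0.0348 in CC, and 0.165 and 0.121 in Ang OE. Among the TM4 groups the Ang OE libraries were thus the highest and the CC libraries the lowest, with no overlap. By rank among the isoacceptors with reads, tRNA-SeC-TCA was between 32nd and 34th in sperm and between 47th and 49th in TM4 cells, whereas tRNA-Cys-GCA was between 25th and 30th in all 12 libraries.

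**Figure D2:**
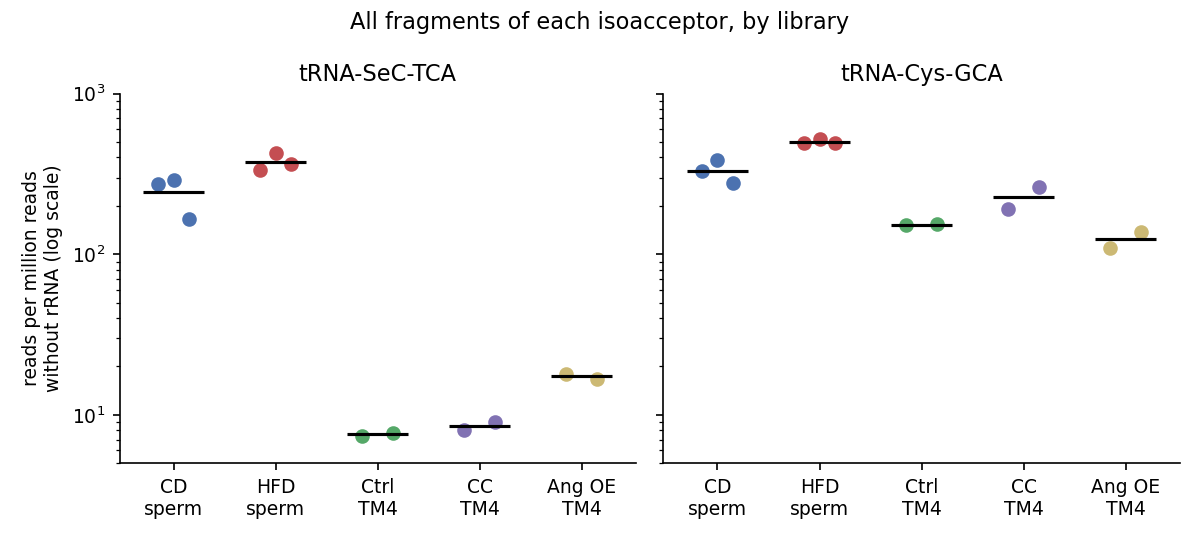
Points are libraries and bars are group means of all fragments of the isoacceptor, in RPM on a log axis, for the 5 groups. tRNA-SeC-TCA lies between 166 and 427 RPM in sperm and between 7.43 and 18.04 RPM in TM4 cells, whereas tRNA-Cys-GCA lies between 110 and 520 RPM in all libraries.

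Both tRNAs were mostly seen as other fragments in sperm, but they differed in which end they kept. In tRNA-SeC-TCA, tRF5 made up 20.1%, 26.7% and 22.8% of the reads in CD and tRF3 made up 5.34%, 5.29% and 5.41%. tRNA-Cys-GCA had almost no tRF5: each library held 0 to 3 such reads, a share of at most 0.0399%, and its tRF5 passed no filter and was not tested. Its end fragments were tRF3, with 21.1%, 28.2% and 20.2% of the reads in CD. The share of tRF5 among all isoacceptors with at least 100 reads ranged from 0% to 98.1% within sperm libraries, with medians of 7.74% to 13.5%, so tRNA-Cys-GCA was among the 3 lowest of about 49 isoacceptors and tRNA-SeC-TCA was between 27th and 31st from the lowest.

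In Ctrl TM4 cells tRF3 was the main class of tRNA-Cys-GCA and a rare class of tRNA-SeC-TCA. tRF3 made up 58.6% and 61.1% of the tRNA-Cys-GCA reads in Ctrl, against a median isoacceptor at 45.7% and 50.0%. In tRNA-SeC-TCA it made up 1.88% and 4.33%, 3rd and 4th from the lowest of 50 isoacceptors. The mean level of tRNA-Cys-GCA tRF3 in CD sperm was 0.853-fold that in Ctrl TM4 cells, while its other fragments were 4.11-fold higher in sperm. For tRNA-SeC-TCA all classes were higher in sperm, tRF5 58.8-fold, tRF3 54.6-fold and other 27.1-fold. The Ctrl level of tRNA-SeC-TCA tRF3 rests on 7 and 20 reads.

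**Figure D3:**
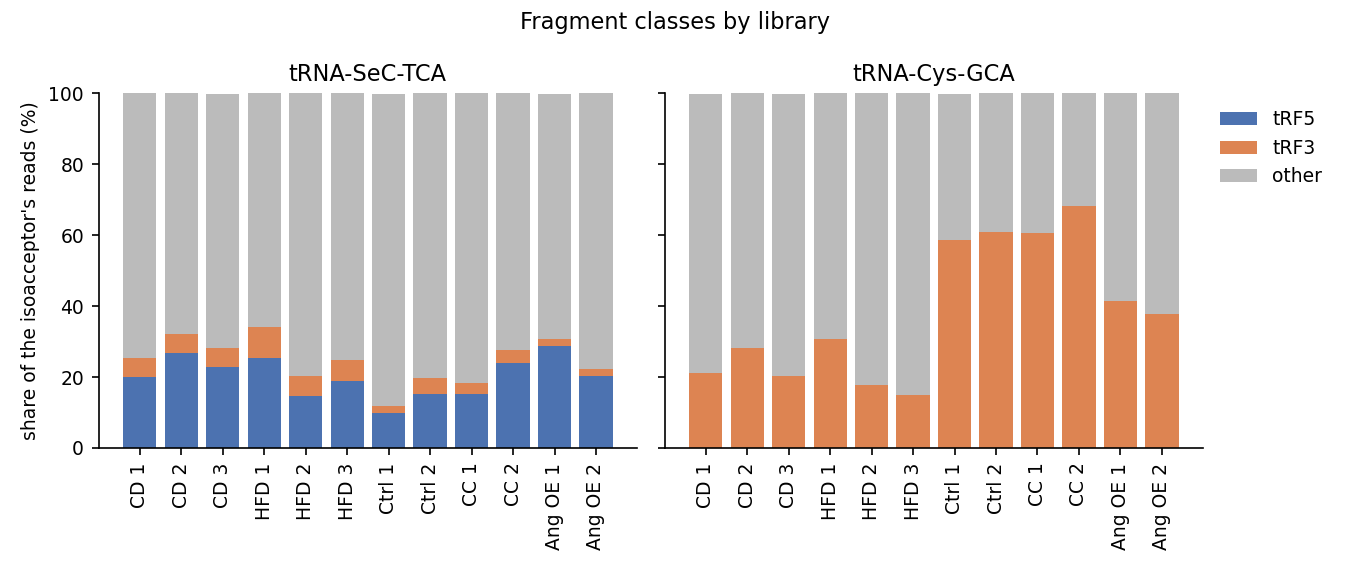
Each bar is 1 library, divided into the shares of the isoacceptor's reads in percent that were tRF5, tRF3 and other; the number after the group is the replicate. The tRF5 part of tRNA-Cys-GCA is too small to see, and its tRF3 part is 15.1% to 30.8% in sperm and 37.7% to 68.2% in TM4 cells.

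The CCA tail of the 3′ fragments also differed between the tRNAs. In CD sperm, 40.8%, 41.8% and 42.7% of the tRNA-SeC-TCA tRF3 reads ended in CCA, and in HFD sperm 51.1%, 31.8% and 37.6% did. For tRNA-Cys-GCA the shares were 77.8%, 57.9% and 79.2% in CD and 60.5%, 50.0% and 62.1% in HFD. Both tRNAs were below the median isoacceptor, which had 91.4% to 95.05% in the sperm libraries, and tRNA-SeC-TCA was between 7th and 9th from the lowest of 49. In TM4 cells, by contrast, 99.8% to 99.97% of tRNA-Cys-GCA tRF3 reads carried the tail, where the median isoacceptor had 99.67% to 99.81%. tRNA-SeC-TCA had only 7 to 20 tRF3 reads in a TM4 library, and with 5 of 18 lacking the tail in Ang OE replicate 1 the share was 72.2% with a 95% Wilson interval of 49.1% to 87.5%. At this depth the share of tRNA-SeC-TCA was not compared between the TM4 groups. Intervals cover counting error only.

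Whether a fragment with the tail also matched the genome differed as well. All CCA-ended tRNA-SeC-TCA reads failed to match it, in 12 of 12 libraries. Of the CCA-ended tRNA-Cys-GCA reads only 0.772% to 1.70% in sperm and 12.95% to 18.004% in TM4 cells failed to match. Among the 52 tRNA-Cys genes found, 1 on chromosome 11, at chr11:97660655-97660726 on the minus strand, is followed by CCA in the genome, and the tRNA-SeC gene is not. Its part in these shares was not tested.

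**Figure D4:**
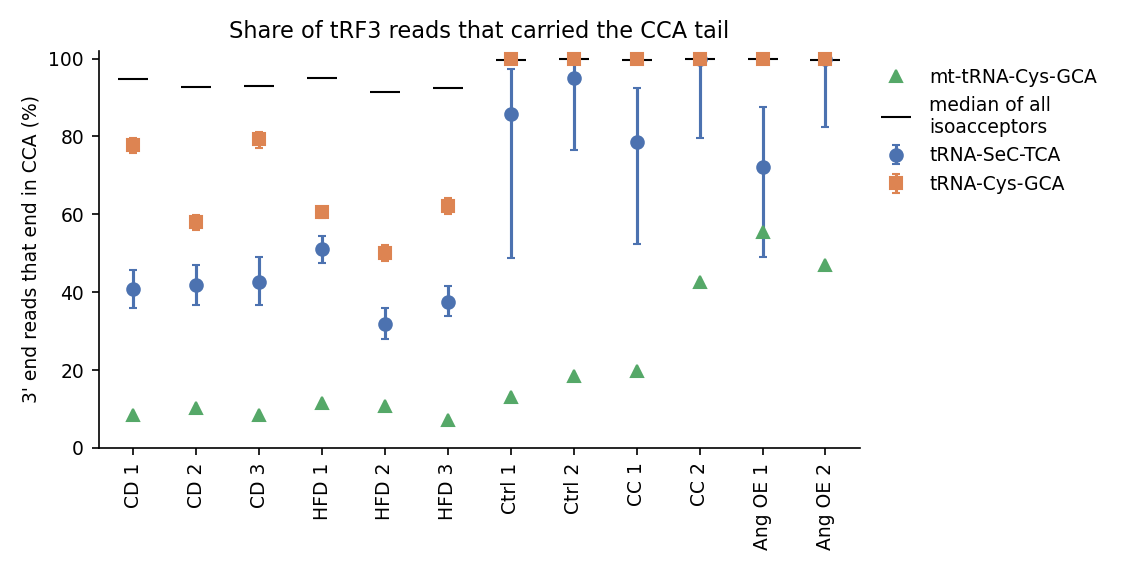
For each library the points give the share of tRF3 reads in percent that ended in CCA, with 95% Wilson intervals for the cytosolic tRNAs, and the black dashes give the median of all isoacceptors with at least 10 tRF3 reads. In sperm tRNA-SeC-TCA at 31.8% to 51.1% lies below tRNA-Cys-GCA at 50.0% to 79.2%, and mt-tRNA-Cys lies below both.

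The comparison of HFD with CD asks whether the diet of the father altered sperm tRFs. All 3 HFD libraries had more tRNA-SeC-TCA fragments than any CD library, 333, 427 and 364 RPM against 166 to 290 RPM, which is 375 ± 48.0 in HFD and 243 ± 67.6 in CD (mean ± SD, n = 3). tRNA-Cys-GCA was likewise higher in each HFD library, at 491, 520 and 494 RPM against 277 to 387 RPM in CD. Neither difference passed the test. By edgeR's quasi-likelihood test over 50 isoacceptors, the log2 fold change was 0.62 ± 0.30 (SE, adjusted p = 0.102) for tRNA-SeC-TCA and 0.60 ± 0.29 (adjusted p = 0.102) for tRNA-Cys-GCA. At an adjusted p under 0.05 the test called 0% of all isoacceptors, 30% had HFD libraries that were all above the CD libraries, and 44% had an unadjusted p under 0.05, 42% with a fold change over 1.5 as well. The median log2 fold change of all isoacceptors was 0.54, so both tRNAs stood little above the general shift. Under TMM the log2 fold changes were 0.11 for tRNA-SeC-TCA and 0.066 for tRNA-Cys-GCA, beside a median of 0.022, and with DESeq2's own size factors they were 0.19 and 0.15, beside 0.11. DESeq2 with the same library sizes called 12 of the 50 isoacceptors, tRNA-Cys-GCA among them at an adjusted p of 0.0348, and DESeq2 with its own size factors called 0.

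Of the 5 tested tRFs, tRNA-SeC-TCA tRF3 had the largest log2 fold change. It stood at 14.6, 15.4 and 8.95 RPM in CD and at 28.6, 23.8 and 21.4 RPM in HFD, so the groups did not overlap. Its log2 fold change of 0.92 ± 0.30 ranked 5th from the highest among all tRFs tested, 137 others and these 5, with an adjusted p of 0.109 by edgeR, and was 0.44 under TMM (adjusted p = 0.942) and 0.54 with DESeq2's own size factors (0.549). The value rested in part on CD replicate 3, without which it fell to 0.72 (adjusted p = 0.62 by edgeR). Without CD replicate 2 it rose to 1.06 (adjusted p = 0.0241), where 18.3% of all tRFs were called. Without any of the other libraries the adjusted p was between 0.0672 and 0.54. Both forms of the fragment were higher in HFD, the form without the tail at 13.3 to 16.2 RPM against 5.13 to 8.94 RPM and the form with the tail at 7.56 to 14.6 RPM against 3.83 to 6.41 RPM.

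The other fragments of both tRNAs were also higher in all HFD libraries than in any CD library, and the remaining tRFs overlapped. tRNA-SeC-TCA other stood at 203, 197 and 119 RPM in CD and at 219, 341 and 274 RPM in HFD and had a log2 fold change of 0.68 ± 0.35 by edgeR (adjusted p = 0.263). tRNA-Cys-GCA other stood at 258, 278 and 221 RPM in CD and at 340, 428 and 419 RPM in HFD (0.65 ± 0.35, adjusted p = 0.263). tRNA-SeC-TCA tRF5, at 54.99, 77.6 and 37.7 RPM in CD and 84.5, 62.5 and 69.0 RPM in HFD, overlapped between the diets, as did tRNA-Cys-GCA tRF3, at 69.0, 109 and 55.9 RPM in CD and 151, 91.96 and 74.5 RPM in HFD.

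In all, edgeR called 0 of the 5 tested tRFs of these tRNAs and 0% of all tested, and DESeq2 with the same library sizes called 0 of the 5. The HFD and CD libraries did not overlap for 3 of the 5, against 26.8% of all tRFs, and 1 of the 5 had an unadjusted p under 0.05, against 16.2%. The median log2 fold change of the 5 was 0.65, beside 0.44 for all tRFs, 0.59 for the 14 tRFs of tRNA-Ser and 0.54 for the 15 of tRNA-Leu, which like tRNA-SeC have a long variable arm. None of the tRNA-Ser and tRNA-Leu tRFs was called, and all 29 were above 0. Under TMM, a scaling that centres most tRFs on no change, the median of all tRFs moved to -0.08. On that scale tRNA-SeC-TCA tRF5 and tRNA-Cys-GCA tRF3 turned to -0.13 and -0.03.

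The fragment classes within each tRNA did not pass a test between the diets. The exact 2-sided permutation test over 147 class shares of 49 isoacceptors cannot give a p under 0.1 with 3 against 3 libraries. Of the 6 shares of these tRNAs that of tRNA-SeC-TCA tRF3 reached it, with 8.61%, 5.56% and 5.87% in HFD against 5.29% to 5.41% in CD (adjusted p = 0.98 by the exact permutation test). The groups did not overlap for 1 of the 6 shares of these tRNAs, against 5.44% of all shares. The difference of the means was 1.33 percentage points, and 0.37 without HFD replicate 1. The tRF5 share of tRNA-SeC-TCA was 14.6% to 25.4% in HFD and 20.1% to 26.7% in CD.

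The marker hairpins of white blood cells, of which 2 of 3 were detected, also moved with the diet. They summed to 246 to 293 RPM in CD and 386 to 611 RPM in HFD without overlap, while mir-142b was at 0 in all libraries. The lists of testis germ cells, epithelium, red blood cells and smooth muscle overlapped between the diets. The part of white blood cell RNA in the tRF levels was not tested. The mitochondrial tRNA-Cys was higher in HFD as well, at 41.8, 49.1 and 51.4 RPM against 37.0, 31.7 and 30.2 RPM in CD, with no test.

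In TM4 cells, CC is compared with Ctrl to ask whether AMPK inhibition alters tRFs. tRNA-SeC-TCA stood at 8.06 and 9.07 RPM in CC and 7.43 and 7.75 RPM in Ctrl (log2 fold change 0.17 ± 0.24, adjusted p = 0.583 by edgeR over 51 isoacceptors). tRNA-Cys-GCA was at 190 and 261 RPM in CC and 152 and 153 RPM in Ctrl (0.56 ± 0.28, adjusted p = 0.126). tRNA-Cys-GCA was called with the replicate number as a block (adjusted p = 0.0355), after ComBat-seq (0.00468) and without CC replicate 1 (0.0332), where edgeR called 41.2%, 58.8% and 29.4% of all isoacceptors. Its log2 fold change was 0.09 under TMM (adjusted p = 0.662) and 0.12 with DESeq2's own size factors (0.481). For tRNA-SeC-TCA the log2 fold change turned to -0.27 under TMM (adjusted p = 0.502 by edgeR) and to -0.24 with DESeq2's own size factors (0.364). In RPM the CC libraries lay above Ctrl for both tRNAs but differed from each other by more than the Ctrl libraries did. Lying above Ctrl was common: of the 138 other tRFs tested, 76 did so without overlap and 12 lay below. The edgeR test called 1.96% of all isoacceptors, and the median isoacceptor had a log2 fold change of 0.41.

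Most of the tRNA-Cys-GCA difference was in tRF3, with 115 and 178 RPM in CC and 89.3 and 93.6 RPM in Ctrl (0.68 ± 0.27, adjusted p = 0.156 by edgeR). tRNA-Cys-GCA other stood at 74.9 and 82.9 RPM against 63.1 and 59.7 RPM. Among the tRNA-SeC-TCA fragments tRF5 had 63 and 104 reads in CC and 37 and 71 in Ctrl, or 1.22 and 2.18 RPM against 0.739 and 1.19 RPM (0.81 ± 0.43, adjusted p = 0.244). tRNA-SeC-TCA other stood at 6.57 RPM in both CC libraries and at 6.55 and 6.22 RPM in Ctrl. Of the 5 tested tRFs, edgeR called 0 and had 1 at an unadjusted p under 0.05, against 0.699% called and 27.3% at an unadjusted p under 0.05 of all tRFs. DESeq2 called 0 of the 5 with the same library sizes and with its own size factors, beside 4.2% of all tRFs under both. The median of the 5 was 0.36, beside 0.43 for all tRFs. Without CC replicate 1, or after ComBat-seq with the replicate number as batch, 1 of the 5 was called, beside 28.7% and 35% of all tRFs.

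Ang OE is compared with Ctrl to ask which tRFs follow more angiogenin. tRNA-SeC-TCA rose to 18.04 and 16.7 RPM from 7.43 and 7.75 RPM in Ctrl, a 2.29-fold increase (log2 fold change 1.19 ± 0.24, adjusted p = 2.01e-05 by edgeR). It ranked 5th from the highest of 51 isoacceptors. tRNA-Cys-GCA stood at 110 and 138 RPM, below the 152 and 153 RPM of Ctrl, and the difference did not pass the test (-0.31 ± 0.28, adjusted p = 0.371). The test called 41.2% of all isoacceptors, 15.7% as higher and 25.5% as lower, with 52.9% at an unadjusted p under 0.05, and the median isoacceptor was at 0.03.

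The increase of tRNA-SeC-TCA was in tRF5 and in other. tRF5 had 256 and 186 reads in Ang OE and 37 and 71 in Ctrl, or 5.17 and 3.41 RPM against 0.739 and 1.19 RPM, a 4.42-fold increase (2.14 ± 0.43, adjusted p = 0.0236 by edgeR). Its log2 fold change ranked 4th from the highest among all tRFs tested, 138 others and these 5. tRNA-SeC-TCA other was at 12.5 and 12.9 RPM against 6.55 and 6.22 RPM, 1.99-fold higher (1.00 ± 0.22, adjusted p = 0.0269). tRF3 had 18 reads in each Ang OE library and 7 and 20 in Ctrl, and did not pass the test (0.52 ± 0.58, adjusted p = 0.505), with values of 0.046 to 1.29 when 1 library was left out, the highest without Ctrl replicate 2. As a share of the tRNA-SeC-TCA reads, tRF5 was 28.6% (95% Wilson interval 25.8% to 31.7%) and 20.4% (17.9% to 23.2%) in Ang OE and 9.95% (7.30% to 13.4%) and 15.4% (12.4% to 18.9%) in Ctrl. The CC libraries had 15.1% and 24.1% and overlapped with both. The median tRF5 share of all isoacceptors was also higher in Ang OE, at 3.33% and 3.53% against 2.45% and 1.32% in Ctrl. With 2 against 2 libraries no exact test can pass 0.05.

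In tRNA-Cys-GCA the tRF3 and the other fragments lay on different sides of Ctrl. Its tRF3 stood at 45.5 and 51.96 RPM in Ang OE and 89.3 and 93.6 RPM in Ctrl, with a log2 fold change of -0.91 ± 0.27 that missed the threshold (adjusted p = 0.071 by edgeR). It was called as lower with DESeq2 (adjusted p = 0.0293 with the same library sizes and 0.000377 with its own size factors), TMM (0.0106), mature tRNA reads as library size (0.0032), the replicate number as a block (0.0485), ComBat-seq (0.00827), the 2 compared groups alone (0.0224) and without either CC library (0.0212 and 0.0215). Without a Ctrl or an Ang OE library the adjusted p was 0.113 to 0.304. The share of all tRFs called as lower under the settings that called it was 10.5% to 46.9%, against 5.59% in the edgeR test above. Its other fragments were at 64.1 and 85.8 RPM against 63.1 and 59.7 RPM (0.29 ± 0.23, adjusted p = 0.37 by edgeR). With mature tRNA reads as library size they too lay below Ctrl, at a log2 fold change of -0.50. Without Ang OE replicate 2 their value was 0.06. The tRF3 share was therefore 41.5% and 37.7% in Ang OE and 58.6% and 61.1% in Ctrl. The share also differed among all isoacceptors, whose median was 40.2% and 37.4% in Ang OE and 45.7% and 50.0% in Ctrl.

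Of the 5 tested tRFs, 2 were called in Ang OE against Ctrl, both higher, beside 10.5% of all tRFs, 4.9% as higher and 5.59% as lower. With a fold change over 2 as well, 1 of the 5 was called, beside 9.79%. Without Ang OE replicate 1 neither was called, with an adjusted p of 0.0677 for tRNA-SeC-TCA tRF5, and tRNA-SeC-TCA other was also lost without either Ctrl library or Ang OE replicate 2. With 1 library left out, the log2 fold change of tRNA-SeC-TCA other stayed at 0.96 to 1.03, while that of tRNA-SeC-TCA tRF5 ranged from 1.81 to 2.53. With all libraries the median of the 5 was 0.52, beside -0.01 for all tRFs. The tRNA-Ser tRFs had a median of -0.55 with 0 called higher and 1 called lower of 14, and the tRNA-Leu tRFs had -0.51 with 0 higher and 2 lower of 15. tRF5 of all isoacceptors had a median of 0.63 and tRF3 of all had -0.65, with 4 of 44 tRF5 called higher and 8 of 49 tRF3 called lower.

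These calls depended on what the reads were scaled to. Mature tRNA reads as a whole were more abundant in Ang OE, at 36772 and 49568 RPM against 27578 and 22658 RPM in Ctrl. Scaled to mature tRNA reads the log2 fold change of tRNA-SeC-TCA was 0.44 (adjusted p = 0.275 by edgeR) and that of tRNA-Cys-GCA was -1.09 (adjusted p = 0.00183), and tRNA-SeC-TCA tRF5 was still called at an adjusted p of 0.0457 whereas tRNA-SeC-TCA other was not, at 0.49. On that scale 1.4% of all tRFs were called as higher and 46.9% as lower. The summed hairpins of testis germ cells, 1195 to 1334 RPM in Ang OE against 591 to 609 RPM in Ctrl, and of smooth muscle, 61711 to 79792 RPM against 29770 to 31248 RPM, moved with Ang OE too. Those of red blood cells were at 1090 to 1164 RPM in Ang OE and 1091 to 1152 RPM in CC against 1607 to 1639 RPM in Ctrl. Their part in the results was not tested.

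Ang OE set against CC compares the 2 interventions directly, without Ctrl, which both other TM4 comparisons share. tRNA-SeC-TCA was higher in Ang OE, at 18.04 and 16.7 RPM against 8.06 and 9.07 RPM (log2 fold change 1.02 ± 0.24, adjusted p = 0.000153 by edgeR), and tRNA-Cys-GCA was lower, at 110 and 138 RPM against 190 and 261 RPM (-0.86 ± 0.28, adjusted p = 0.00524). Both calls stand among many, since 56.9% of all isoacceptors were called, 13.7% as higher and 43.1% as lower. Without Ang OE replicate 1 the adjusted p of tRNA-Cys-GCA was 0.12. Scaled to mature tRNA reads, tRNA-SeC-TCA was not called (log2 fold change 0.38, adjusted p = 0.305 by edgeR).

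By class, tRNA-Cys-GCA tRF3 was 3.00-fold lower in Ang OE than in CC, at 45.5 and 51.96 RPM against 115 and 178 RPM (-1.59 ± 0.27, adjusted p = 0.00558 by edgeR). tRNA-SeC-TCA tRF5 was 2.52-fold higher, at 5.17 and 3.41 RPM against 1.22 and 2.18 RPM (1.33 ± 0.42, adjusted p = 0.0301). tRNA-SeC-TCA other was 1.94-fold higher, at 12.5 and 12.9 RPM against 6.57 RPM in both CC libraries (0.95 ± 0.22, adjusted p = 0.0115). tRNA-Cys-GCA other (-0.07 ± 0.23, adjusted p = 0.793) and tRNA-SeC-TCA tRF3 (0.24 ± 0.57, adjusted p = 0.729) did not pass the test. The hairpins of testis germ cells (1195 to 1334 RPM in Ang OE against 550 to 595 RPM in CC) and of smooth muscle (61711 to 79792 RPM against 30287 to 42667 RPM) were higher in Ang OE without overlap, and their part in these differences was not tested.

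Thus 3 of the 5 tRFs were called, 2 higher and 1 lower, beside 51.7% of all tRFs, 13.3% as higher and 38.5% as lower. The 5 had a median of 0.24, and all tRFs had one of -0.38. Of the tRNA-Ser tRFs 0 were called higher and 9 lower of 14, and of the tRNA-Leu tRFs 0 higher and 9 lower of 15. Both tRNA-SeC-TCA tRFs lost their call without Ang OE replicate 1, tRF5 also without CC replicate 1, and other also without Ang OE replicate 2. With 1 library left out, the log2 fold change of tRNA-SeC-TCA other stayed at 0.93 to 0.98, while that of tRNA-SeC-TCA tRF5 ranged from 0.97 to 1.81. Scaled to mature tRNA reads neither tRNA-SeC-TCA tRF5 (adjusted p = 0.215 by edgeR) nor tRNA-SeC-TCA other (adjusted p = 0.329) was called. On that scale both tRNA-Cys-GCA tRFs were called as lower, as were 62.2% of all tRFs.

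**Figure D5:**
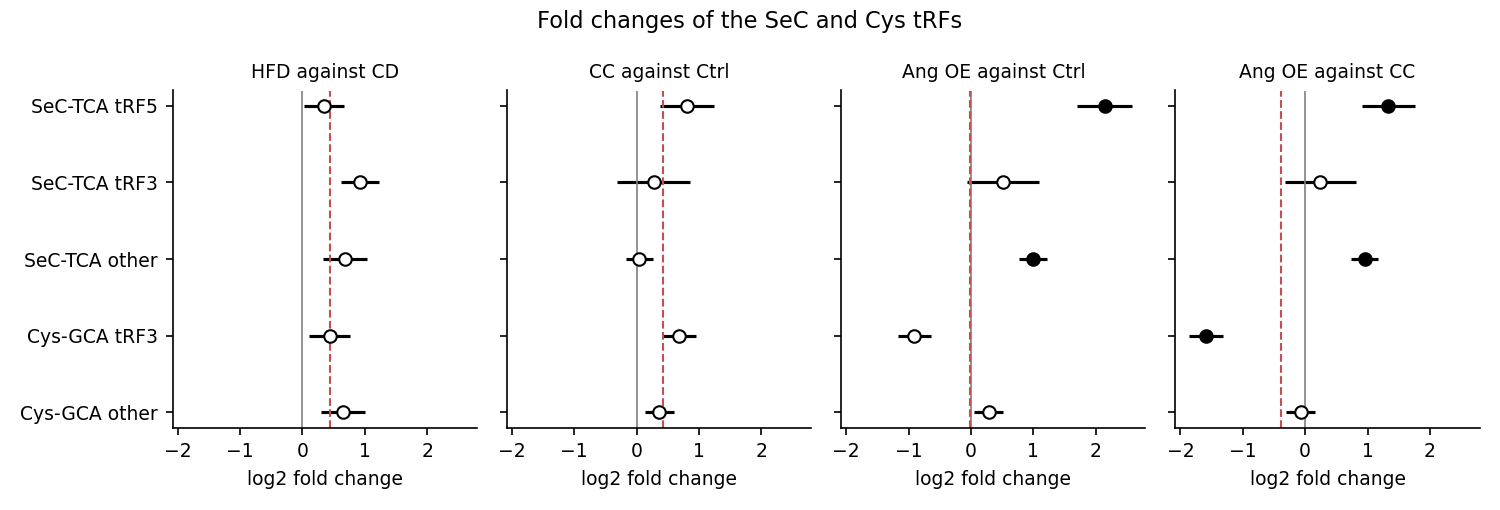
Points are log2 fold changes from edgeR with their standard errors for the 5 tested tRFs in the 4 comparisons, filled where the adjusted p is under 0.05, and the dashed line is the median of all tested tRFs. The filled points are tRNA-SeC-TCA tRF5 and other in both comparisons with Ang OE, and tRNA-Cys-GCA tRF3 in Ang OE against CC.

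The mitochondrial tRNA-Cys, which serves protein synthesis in mitochondria, differed from its cytosolic counterpart in level and shape. It stood at 19.4 and 11.9 RPM in Ctrl, 14.4 and 7.90 RPM in CC, and 7.75 and 7.34 RPM in Ang OE, so the Ang OE libraries were below all others. The cytosolic tRNA-Cys-GCA had 7.85 to 33.0 times as many reads. In the same cells tRF5 made up 14.6% to 33.5% of the mitochondrial reads, where the cytosolic tRNA had almost none. Its 3′ fragments ended in CCA in 12.99% and 18.6% of cases in Ctrl, 19.7% and 42.6% in CC, and 55.5% and 47.1% in Ang OE, and in sperm in 7.31% to 11.6%. No precursor of tRNA-SeC or tRNA-Cys was listed in the tables.

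The tRFs whose levels went most closely with these were found by Pearson's r of log2(RPM + 1) over the 12 libraries among 138 other tRFs. Because sperm and TM4 cells form separate clusters, r over all 12 mainly repeats the difference between them, and r within the 6 sperm and the 6 TM4 libraries is given beside it as a description. tRNA-Cys-GCA tRF3 went most closely with tRF3 of tRNA-Ser-GCT (r = 0.925, and 0.913 in sperm and 0.990 in TM4 cells), tRNA-Ser-TGA (0.914, with 0.942 and 0.964) and tRNA-Ile-AAT (0.868, with 0.886 and 0.952). For comparison, the median r of this tRF with all others was 0.131. tRNA-Cys-GCA other went with tRNA-Trp-CCA tRF5, tRNA-Val-TAC other and tRNA-Leu-CAA tRF5 (r of 0.987 to 0.989, with 0.854 to 0.912 in sperm and 0.428 to 0.935 in TM4 cells), where the median over all others was 0.789.

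tRNA-SeC-TCA tRF5 went with tRF5 of tRNA-Leu-TAA, tRNA-Leu-AAG and tRNA-Ser-CGA (r of 0.982 to 0.983, with 0.768 to 0.811 in sperm and 0.509 to 0.589 in TM4 cells). tRF3 went with tRNA-Ser-CGA tRF5, tRNA-iMet-CAT other and tRNA-Ser-GCT other (r of 0.992 to 0.995, with 0.823 to 0.895 in sperm), which within TM4 cells had an r of 0.588, 0.446 and -0.80. The other fragments went with tRNA-iMet-CAT other, tRNA-Ala-AGC tRF5 and tRNA-Leu-CAA tRF5 (r of 0.989 to 0.993, with 0.795 to 0.924 in sperm and 0.584 to 0.748 in TM4 cells). The median r over all tRFs was between 0.758 and 0.779 for the tRNA-SeC-TCA tRFs, so high values of r were common.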

How the data were processed

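Small RNA libraries of sperm (3 CD, 3 HFD) and TM4 cells (2 Ctrl, 2 CC, 2 Ang OE) were grouped by the sample labels. The authors checked reads with FastQC 0.12.0, trimmed them with Trimmomatic 0.40, kept 15 to 45 nt and annotated them with SPORTS1.1, allowing 1 mismatch; the submitters' processing notes name mm10. The values deposited by the authors are estimated counts of reads per class and subclass, with no normalization. A read matching several subclasses was divided among them. Totals were fractional for tRNA-Cys-GCA in 11 of 12 libraries and for tRNA-SeC-TCA in 0. Divided reads that sum to a whole number are not seen in this way. The row of an isoacceptor includes its end fragments. The members and lists were chosen with earlier results of these data known.

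Genome-matched and unmatched reads were added, and other fragments were the total minus the end fragments. Counts were rounded and tested with edgeR 4.0.16 (R 4.3.3) by the quasi-likelihood test, taking the clean reads left after removal of rRNA as the library size, unscaled. Features needed at least 10 reads in at least 3 sperm or 2 TM4 libraries. The diets were fitted on the 6 sperm libraries and the TM4 groups on all 6 TM4 libraries. P-values were adjusted by Benjamini-Hochberg over all tRFs or isoacceptors, and a feature was called at an adjusted p under 0.05. SE is the log2 fold change over the square root of F. Shares were compared with exact 2-sided permutation tests. Each tRNA had 372 to 13835 reads per library, and precision was also limited by the spread between libraries and their number. The authors adjusted TM4 counts with ComBat-seq for batches that the sources used here do not assign to libraries.

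Alternatives were DESeq2 1.42.0, TMM, other library sizes, other filters, genome-matched reads alone, other uses of CCA-ended reads, the replicate number as a block, ComBat-seq (sva 3.50.0) with the replicate number as batch, other call rules, 2 groups alone and each library left out. The library sizes for the sperm to TM4 ratios were chosen after seeing the data. Only the edgeR test of tRFs was tried on simulated data, with changes larger than any seen between the diets. That trial does not show which smaller differences the test would detect. By a rule all tRFs of both tRNAs, their mitochondrial and precursor rows and the 3 most alike tRFs of each are named. tRNA genes were searched in GRCm39 by cloverleaf and B box with at most 1 unpaired position per stem and 2 in all. Hits on 1 chromosome were left out. Python 3.11.15, pandas 2.3.3, scipy 1.17.1 and matplotlib 3.10.9 were used.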

Additional observations from a re-analysis of the deposited data

How the results depend on the processing

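Of 628 alternative values, 196 of totals, counts and ratios and 355 of single tRFs and shares kept their direction and their side of the threshold or, for counts and ratios, stayed close. With DESeq2's own size factors, log2 fold changes turned for tRNA-SeC-TCA tRF5 under HFD (-0.027), for tRNA-SeC-TCA total (-0.24), tRF3 (-0.10) and other (-0.32) and tRNA-Cys-GCA other (-0.0063) in CC against Ctrl, and for tRNA-Cys-GCA other in Ang OE against CC (0.34), and tRNA-Cys-GCA total in Ang OE against Ctrl was called (-0.31, adjusted p = 0.00235). TMM turned tRNA-SeC-TCA tRF5 (-0.13) and tRNA-Cys-GCA tRF3 (-0.033) under HFD, tRNA-SeC-TCA total (-0.27), tRF3 (-0.18) and other (-0.40) and tRNA-Cys-GCA other (-0.086) in CC against Ctrl, and tRNA-Cys-GCA other in Ang OE against CC (0.34). Both scalings move the median of all tRFs towards 0, from 0.44 to 0.04 and -0.08 under HFD, and from 0.43 to 0.04 and -0.05 in CC against Ctrl. With mature tRNA reads as library size, tRNA-SeC-TCA total was no longer called in Ang OE against Ctrl (0.44, median of all isoacceptors -0.72) or CC (0.38, median -0.98), tRNA-Cys-GCA total was called against Ctrl (-1.09), and tRNA-SeC-TCA other in CC against Ctrl (-0.071), tRNA-Cys-GCA other (-0.50) and tRNA-SeC-TCA tRF3 (-0.28) in Ang OE against Ctrl and tRNA-SeC-TCA tRF3 in Ang OE against CC (-0.41) turned. On that scale the ratio of CD to Ctrl was 5.96 for tRNA-SeC-TCA and 0.401 for tRNA-Cys-GCA, which was 1.80 with all clean reads. DESeq2 with the same library sizes called tRNA-Cys-GCA total under HFD (0.60). The cause of these differences was not tested.

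A call rule on an unadjusted p and 1.5-fold under HFD raised the calls among the 5 tRFs from 0 to 1, beside 16.2% of all tRFs, and one that added 2-fold in Ang OE against Ctrl lowered them from 2 to 1, beside 9.79%. ComBat-seq gave 1 call in CC against Ctrl and called tRNA-Cys-GCA total there (0.53), beside 35% of all tRFs and 58.8% of all isoacceptors. Counting CCA-ended reads as other turned tRNA-Cys-GCA other in Ang OE against Ctrl (-0.30) and the diet differences in the shares of tRNA-Cys-GCA tRF3 (1.98 percentage points) and other (-1.97).

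The replicate numbers are shared between groups, and no source ties them to a culture, batch or day, so they were not taken as pairs: r of same-numbered deviations was 0.02, 0.206 and 0.205 in sperm, and in TM4 cells, with only 2 pairs, 0.762 for Ctrl with CC, -0.22 for Ctrl with Ang OE and -0.25 for CC with Ang OE. With the replicate number as a block the number of the 5 tRFs called was 0 under HFD, 0 in CC against Ctrl, 3 in Ang OE against Ctrl, where tRNA-Cys-GCA tRF3 was added (adjusted p = 0.0485), and 3 in Ang OE against CC, beside 0%, 1.4%, 17.5% and 53.8% of all tRFs. tRNA-Cys-GCA total was called in CC against Ctrl (0.54), where the block raised the isoacceptors called from 1 to 21, 20 of them higher, and it raised those under HFD from 0 to 7.

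With each library left out in turn, a lone TM4 library being assumed to vary like the other groups, calls among the 5 tRFs ranged from 0 to 1 under HFD (1 without CD replicate 2, beside 18.3% of all tRFs), 0 to 1 in CC against Ctrl (1 without CC replicate 1, beside 28.7%), 0 to 3 in Ang OE against Ctrl (0 without Ang OE replicate 1, beside 7.75%, and 3 without either CC library, beside 30.8% and 31.7%) and 1 to 3 in Ang OE against CC (1 without Ang OE replicate 1, beside 30.3%). tRNA-SeC-TCA total ranged over 0.41 to 0.77 under HFD, 0.09 to 0.26 in CC against Ctrl, 1.14 to 1.25 in Ang OE against Ctrl and 0.94 to 1.11 in Ang OE against CC, and kept its call in the latter pair. tRNA-Cys-GCA total ranged over 0.49 to 0.73, 0.31 to 0.77, -0.48 to -0.15 and -1.08 to -0.62. Without CD replicate 2 both totals were called under HFD (adjusted p = 0.0203 and 0.0219 by edgeR), as were 58% of all isoacceptors, without CC replicate 1 tRNA-Cys-GCA was called in CC against Ctrl (0.0332), and without Ang OE replicate 1 it was lost against CC. Ranges that crossed 0 were -0.20 to 1.05 for tRNA-SeC-TCA tRF3 in CC against Ctrl, -0.30 to 0.12 for tRNA-Cys-GCA other in Ang OE against CC and, in percentage points between the diets, -6.79 to 1.08 and -1.07 to 6.81 for the tRNA-Cys-GCA tRF3 and other shares and -0.83 to 6.06 for the tRNA-SeC-TCA other share. Without CD replicate 2 the tRNA-Cys-GCA shares differed by 0.55 and -0.53. In TM4 cells the 7 to 20 reads of tRNA-SeC-TCA tRF3 limit what could be seen.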
